A study of Mus musculus with 6 samples.

Results

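The integrin and laminin chains were followed in heart ventricles of 6 male mice, each measured on its own Affymetrix array. The chains are the genes whose symbol names an integrin alpha or beta subunit or a laminin alpha, beta or gamma chain and whose transcript cluster (the probe set of a gene) carried only that symbol. This gave 35 genes of 30063 named genes on the array, each with a single cluster. Itga1 shared its cluster with another symbol and was not analysed here. The finerenone group held 3 mice fed chow with 100 ppm of finerenone, a non-steroidal antagonist of the mineralocorticoid receptor, from 4 weeks of age, and the untreated group held 3 mice fed that chow without drug. All mice were collected at 20 weeks. Both groups shared the same genetic lesion on a C57BL/10 background, loss of dystrophin (mdx) with 1 working utrophin allele (utrn+/-; mdx, called "Het" in the labels), so no group without muscular dystrophy was available for comparison. Per the labels, mice were separate biological replicates assigned to diet at random.

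Integrins are receptors in the cell membrane built from an alpha and a beta chain, and they join the matrix outside the cell to the actin cytoskeleton within it. Laminins are cross-shaped proteins of an alpha, a beta and a gamma chain that form the sheet of the basement membrane around each muscle fibre, cardiomyocyte and capillary. In striated muscle the laminin built on the Lama2 chain is held by dystroglycan, to which dystrophin attaches, and also by the integrin of Itga7 and Itgb1, which is therefore known as another link to the matrix beside the one that mdx mice lack. Other integrins of the list mark blood cells (Itgam, Itgal, Itgax and Itgad with Itgb2) or bind fibronectin and vitronectin through the peptide motif RGD (Itga5, Itgav, Itga8, Itga2b).

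RefSeq promoter windows of mouse assembly GRCm38.p6, from 250 bases before to 50 after the annotated start, were at hand for 22 of the 35 genes (25 windows). Shown here are those of Itgam and Itgax, neighbouring genes of the leukocyte alpha chains, and of Itgb7, the chain with the smallest unadjusted p among those with a higher mean under finerenone. Capitals mark TGTTCT, a half-site letter pattern of corticosteroid receptor binding sites, and GAGGAA, a core letter pattern of the myeloid factor PU.1, on either strand (as AGAACA and TTCCTC on the other). No 2 marks overlap. Each run reads 5′ to 3′ on the gene's strand.
Itgam (chr7:128062390-128062689, plus strand): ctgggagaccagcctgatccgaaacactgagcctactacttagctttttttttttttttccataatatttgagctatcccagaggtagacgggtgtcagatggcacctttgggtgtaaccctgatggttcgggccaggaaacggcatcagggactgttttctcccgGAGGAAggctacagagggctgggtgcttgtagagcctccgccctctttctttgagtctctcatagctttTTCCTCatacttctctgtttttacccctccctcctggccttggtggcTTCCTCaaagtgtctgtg
Itgax (chr7:128129300-128129599, plus strand): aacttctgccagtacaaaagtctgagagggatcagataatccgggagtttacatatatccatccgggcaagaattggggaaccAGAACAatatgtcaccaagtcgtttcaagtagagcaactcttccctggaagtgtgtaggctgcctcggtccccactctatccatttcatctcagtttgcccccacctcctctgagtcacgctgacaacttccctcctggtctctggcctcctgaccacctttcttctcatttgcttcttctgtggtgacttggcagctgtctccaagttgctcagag
Itgb7 (chr15:102231886-102232185, minus strand): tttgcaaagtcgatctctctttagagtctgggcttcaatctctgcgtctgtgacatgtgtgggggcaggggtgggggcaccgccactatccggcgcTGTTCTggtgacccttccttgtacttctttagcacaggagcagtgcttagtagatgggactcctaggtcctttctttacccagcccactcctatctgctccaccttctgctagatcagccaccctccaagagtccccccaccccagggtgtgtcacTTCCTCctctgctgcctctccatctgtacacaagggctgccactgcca
GAGGAA began at bases -84, -15 and 33 of Itgam, counted with 1 as the first transcribed base, and at base 3 of Itgb7. TGTTCT began at base -167 of Itgax and -154 of Itgb7. Over all 25 windows of the chains 24.0% held TGTTCT, against 19.0% of 32851 windows in the reference, and 56.0% held GAGGAA, against 28.3%. These matches describe letters in the windows and show no binding.

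Signals are log2 values that the authors computed with RMA, with array medians over transcript clusters from 4.44 to 4.47 in finerenone arrays and from 4.43 to 4.48 in untreated arrays. Untreated replicate 1 stood apart. It held the lowest value for 38.8% of the 4735 genes above background in every array, where the other 5 arrays each held it for 8.2% to 16.5%, and it alone carried the liver-made fibrinogen chain Fgg at 8.52 (3.50 to 3.60 elsewhere). Several values below are also given without it. Background was set at the 95th percentile of 5222 negative control probe sets, which lay at 8.35 to 8.73 across the arrays. Of the 35 chains 9 exceeded it in all 6 arrays (Itga5, Itga6, Itgb1, Itgb5, Lama2, Lama4, Lamb1, Lamb2 and Lamc1), Itga7 and Itgav did so in some, and 24 in none. The tissue label fitted the defining markers, since all 9 measured cardiomyocyte markers lay above background in every array (list mean 16.93 to 17.15 in finerenone and 16.97 to 17.26 in untreated hearts).

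No chain passed the adjusted threshold of 0.05 in the limma fit over all genes. The smallest adjusted p among the 35 was 0.600 (Lama3), and 0 of 30063 genes passed (0.0%). At an unadjusted p below 0.05 there were 2 chains, Itgb7 with a higher mean under finerenone and Lama3 with a lower one, where 5.69% of all genes were higher and 2.12% lower by that rule. That is 1 chain of 35 each way, which is near the background. The 2 groups did not overlap for 2 chains that were higher (Itgb2 and Itgb7) and 2 that were lower (Lama3 and Lamb3), against 8.17% higher and 4.17% lower over all genes. The mean was lower under finerenone for 20 of the 35, with a median difference of -0.039 on the log2 scale, against 41.8% of all genes and a median of 0.028. After quantile normalization it was lower for 22 of the 35, against 51.9% of all genes, and after cyclic loess for 20, against 50.4%. Among the 9 chains above background in every array, all 9 had a lower mean (median -0.158), while 36.3% of the 4735 genes above background did (median 0.084). All 9 were again lower after quantile normalization (median -0.275) and cyclic loess (median -0.229), where 53.8% and 52.1% of those genes were (medians -0.026 and -0.015). None of these 9 differences passed alone, and they share arrays, so the count is a description and not a test.

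**Figure D1:**
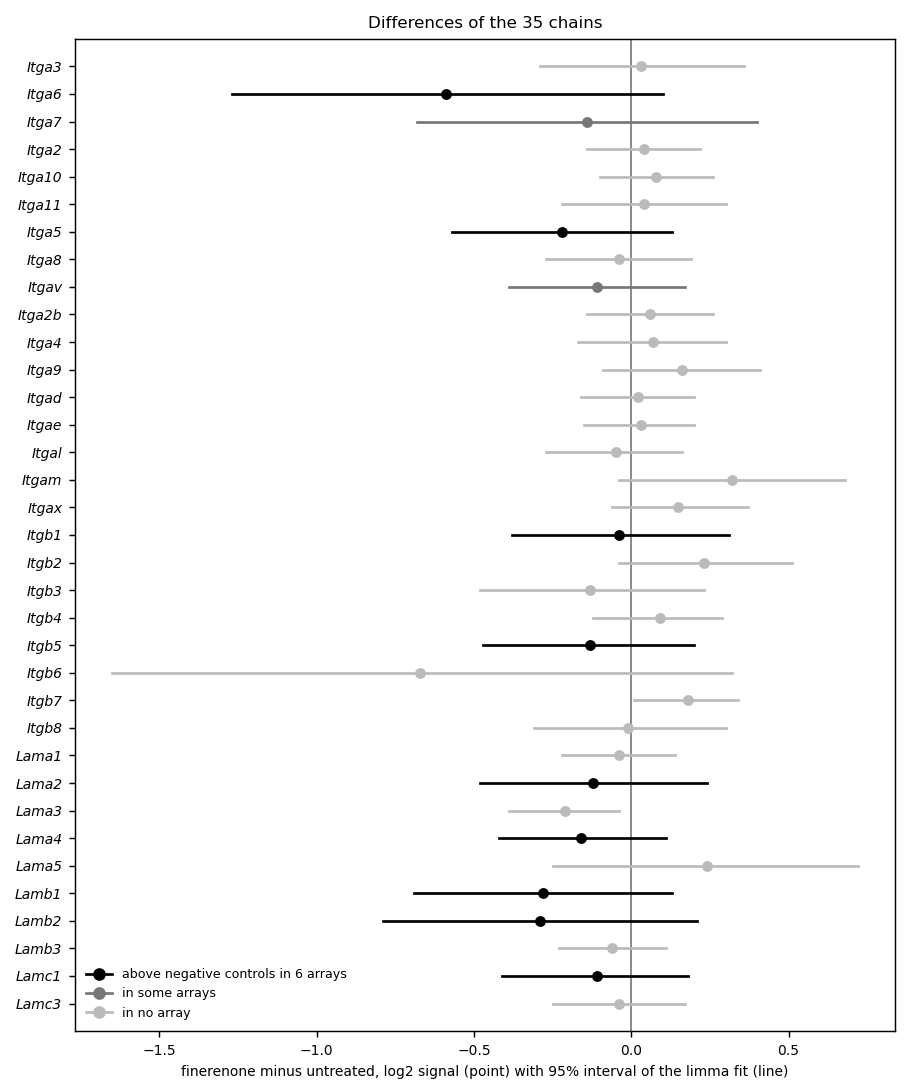
Difference in log2 signal (finerenone minus untreated, x axis) of the 35 chains, with the 95% interval of the limma fit as a line. Black chains lay above the negative controls in all 6 arrays, dark grey in some and light grey in none; all 9 black points lie left of 0, and the intervals of Lama3 and Itgb7 alone leave out 0.

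The 5 laminin chains above background belong to the basement membranes of muscle and vessels, and each had a lower treated mean, by -0.29 to -0.11 on the log2 scale. Lama2, the alpha chain of the muscle basement membrane whose loss causes a congenital muscular dystrophy, measured 11.38, 10.98 and 11.49 in finerenone arrays against 11.43, 11.28 and 11.49 in untreated arrays. The 2 groups overlapped almost fully, with 1 treated array below the rest, and the difference was -0.12 ± 0.15 (SE; 95% interval -0.48 to 0.24). It was 0.03 without finerenone replicate 2, and -0.24 after quantile normalization.

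Lama4, an alpha chain of vessel basement membranes, measured 9.93, 9.64 and 9.89 in finerenone arrays against 10.11, 9.90 and 9.93 in untreated arrays. Only finerenone replicate 2 stood clearly below. Its difference was -0.16 ± 0.11 (SE; adjusted p = 0.775 in limma), -0.07 without that array and -0.09 without untreated replicate 1. Lama5, the other alpha chain of vessel walls, went the opposite way with 7.48, 7.59 and 8.0 in finerenone arrays against 7.37, 7.19 and 7.80 in untreated arrays. The groups overlapped, all its values lay below the background level, and the difference of 0.24 ± 0.20 ran from 0.08 (without finerenone replicate 3) to 0.41 (without untreated replicate 3).

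The 2 beta chains above background had the widest differences among such laminin chains. Lamb1, which joins Lama2 or Lama4 in most tissue laminins, measured 9.56, 8.94 and 9.26 in finerenone arrays against 9.69, 9.46 and 9.44 in untreated arrays. Finerenone replicate 1 lay within the untreated range while the other treated arrays lay below it. The difference was -0.28 ± 0.17 (SE; 95% interval -0.69 to 0.13; adjusted p = 0.743 in limma), -0.12 without finerenone replicate 2 and -0.20 without untreated replicate 1.

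Lamb2, the beta chain concentrated at synapses and in vessel walls, measured 11.17, 10.57 and 11.02 in finerenone arrays against 10.97, 11.11 and 11.54 in untreated arrays. A single treated array was low and a single untreated array high, with the other 4 intermixed. The difference was -0.29 ± 0.21 (SE), -0.11 without finerenone replicate 2 and -0.41 without untreated replicate 1. Lamc1, the gamma chain of nearly all these laminins, measured 11.39, 11.14 and 11.52 in finerenone arrays against 11.52, 11.34 and 11.53 in untreated arrays. The groups overlapped, with a difference of -0.11 ± 0.12. That was -0.0054 without finerenone replicate 2 and -0.23 after quantile normalization.

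The remaining laminin chains are best known from epithelia or embryos and lay below background in every array. Lama3, the alpha chain of skin and other epithelial basement membranes, measured 5.15 to 5.17 in finerenone arrays against 5.33 to 5.41 in untreated arrays. The groups did not overlap, but these values sit at the median of the negative controls (5.04 to 5.29 in finerenone and 5.11 to 5.33 in untreated arrays), and the difference of -0.21 ± 0.07 (SE) had an adjusted p = 0.600 in limma. Lamb3, its epithelial partner, measured 4.62 to 4.65 in finerenone arrays against 4.68 to 4.71 in untreated arrays, below that median. It separated the groups by a difference of -0.06 ± 0.07 only. Lama1, the chain of early basement membranes, and Lamc3 differed by -0.04 each.

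**Figure D2:**
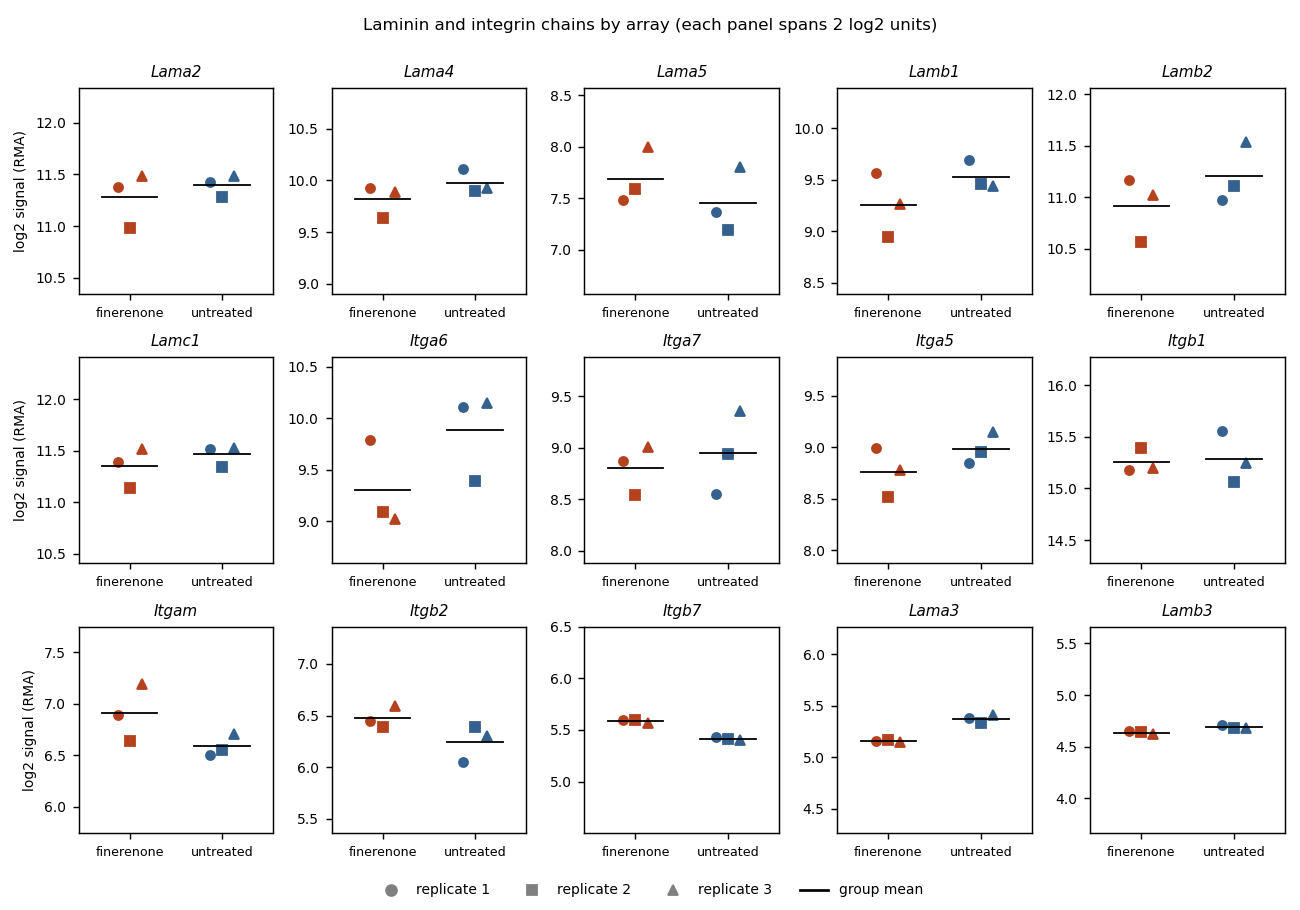
Log2 signal (y axis) of 15 laminin and integrin chains in finerenone arrays (left, red) and untreated arrays (right, blue); symbols give the replicate number and lines the group mean of 3 arrays. Each panel spans 2 log2 units, so the small separations of Itgb7 and Lama3 can be set against the spread of Itga6 and Lamb2.

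Of the integrin chains that bind laminin, Itga6 had the widest difference among all chains above background, a choice of example made after its values were seen. Itga6, which pairs with Itgb1 or Itgb4 and is abundant on capillary endothelium, measured 9.79, 9.09 and 9.02 in finerenone arrays against 10.11, 9.39 and 10.15 in untreated arrays. Both groups held 1 array away from its other 2, and finerenone replicate 1 lay above untreated replicate 2. The difference was -0.59 ± 0.28 (SE; 95% interval -1.27 to 0.10; adjusted p = 0.676 in limma), and it ran from -0.83 (without untreated replicate 2) to -0.45 (without finerenone replicate 3).

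Itga7, the muscle alpha chain that forms a laminin receptor with Itgb1, measured 8.87, 8.54 and 9.01 in finerenone arrays against 8.55, 8.94 and 9.35 in untreated arrays. The untreated arrays alone spanned more than the group means differed. The difference was -0.14 ± 0.22 (SE; 95% interval -0.68 to 0.40) and turned to 0.06 without untreated replicate 3. It was -0.34 when untreated replicate 1 was left out and -0.007 when finerenone replicate 2 was. Itgb1, the beta chain that most alpha chains of heart muscle pair with, measured 15.18, 15.39 and 15.20 in finerenone arrays against 15.56, 15.06 and 15.25 in untreated arrays. The treated values lay within the untreated range, with a difference of -0.04 ± 0.14 (95% interval -0.38 to 0.31). It was 0.10 without untreated replicate 1, -0.28 after quantile normalization and -0.17 after cyclic loess, so its size depended on the scaling. Itga3, a laminin receptor of epithelia, differed by 0.03 ± 0.14 at values below background, with a sign that turned on leaving out any of 3 arrays.

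Of the integrin chains that bind fibronectin and vitronectin, Itga5, the main fibronectin receptor, measured 8.99, 8.52 and 8.78 in finerenone arrays against 8.85, 8.95 and 9.15 in untreated arrays. Finerenone replicate 1 lay inside the untreated range, and the difference was -0.22 ± 0.15 (SE; 95% interval -0.57 to 0.13), or -0.10 without finerenone replicate 2. Itgav, which activates latent TGF-beta with several beta chains, averaged 8.35 ± 0.15 in finerenone and 8.46 ± 0.14 in untreated hearts (SD, n = 3 each). Its beta partner Itgb5 averaged 9.51 ± 0.18 in finerenone and 9.64 ± 0.20 in untreated hearts. In both chains the difference was smaller than the SD of either group, and without untreated replicate 1 it was -0.04 for Itgav and -0.03 for Itgb5. Itga8, a receptor of pericytes and smooth muscle, and the platelet chain Itga2b differed by -0.04 and 0.06. The platelet partner Itgb3 differed by -0.13 ± 0.15, and these 3 lay below background.

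The collagen-binding chains Itga2, Itga10 and Itga11 were below background in every array, with differences of 0.04, 0.08 and 0.04. Itga9, which binds tenascin and VCAM, averaged 8.12 ± 0.14 in finerenone and 7.96 ± 0.09 in untreated hearts (SD, n = 3 each). Its difference was 0.16 ± 0.10 (SE), and the related Itga4 differed by 0.07 ± 0.10. Both had a higher treated mean in each fit with 1 array left out, but neither passed and both lay below background in every array.

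Of the 5 leukocyte alpha chains 4 had a higher treated mean (Itgam, Itgax, Itgad and Itgae), as did Itgb2, the partner of Itgam, Itgax, Itgad and Itgal. All 5 alpha chains and Itgb2 lay below background in every array. Itgam, the CD11b chain of monocytes and macrophages, measured 6.89, 6.64 and 7.19 in finerenone arrays against 6.50, 6.55 and 6.71 in untreated arrays. The groups overlapped by finerenone replicate 2 alone, and the difference was 0.32 ± 0.15 (SE; 95% interval -0.04 to 0.68; adjusted p = 0.667 in limma). It ran from 0.18 (without finerenone replicate 3) to 0.45 (without finerenone replicate 2).

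Itgb2, the beta chain of leukocyte adhesion, measured 6.45, 6.39 and 6.59 in finerenone arrays against 6.05, 6.39 and 6.30 in untreated arrays. The groups did not overlap, but finerenone replicate 2 and untreated replicate 2 were parted only at the third decimal. The difference was 0.23 ± 0.11 (SE; adjusted p = 0.681 in limma), or 0.14 without untreated replicate 1. Itgax, the CD11c chain of dendritic cells and some macrophages, differed by 0.15 ± 0.09 at 5.01 in finerenone and 4.86 in untreated hearts, close to the control median. Itgad, Itgal and Itgae, the chains of splenic macrophages and T cells, differed by 0.02, -0.05 and 0.03, with group means below that median.

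Among the other beta chains, Itgb7, which pairs with Itga4 and Itgae on gut-homing lymphocytes, measured 5.60, 5.60 and 5.57 in finerenone arrays against 5.43, 5.41 and 5.40 in untreated arrays. With an SD of 0.02 in each group the values did not overlap, and a difference of 0.18 ± 0.07 (SE) had the smallest p of the higher chains, 0.0409 unadjusted and 0.622 adjusted in limma. Its signal lay below background, and 0 of 8 measured T and NK cell markers lay above background in any array. Itgb6, known from epithelia, had the widest difference of all 35 and the widest spread, averaging 7.36 ± 0.82 in finerenone and 8.02 ± 0.33 in untreated hearts (SD, n = 3 each). Its difference of -0.67 ± 0.41 (SE) was -0.22 without finerenone replicate 2, and its values lay below background in every array. Itgb4, the epithelial partner of Itga6, and Itgb8 differed by 0.09 and -0.01, also below background.

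Finerenone replicate 2 held the lowest of the 6 values for 7 of these 9 chains and for all 5 laminins among them, whereas it held the lowest value for 16.5% of all 4735 genes above background. Its median deviation from the mean of the 6 arrays was -0.36 over the 9 chains and 0.05 over those 4735 genes. The highest value lay in untreated replicate 1 for 4 chains and in untreated replicate 3 for 5. Without finerenone replicate 2, 8 of the 9 still had a lower mean and Lama2 did not, and the differences of Itga5, Itgb5, Lama4, Lamb1, Lamb2 and Lamc1 shrank to between -0.12 and -0.0054. That of Itga6 was then -0.48, and that of Itgb1, whose highest treated value lay in this array, was -0.10. Without untreated replicate 1, 8 of the 9 were lower and Itgb1 was not.

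**Figure D3:**
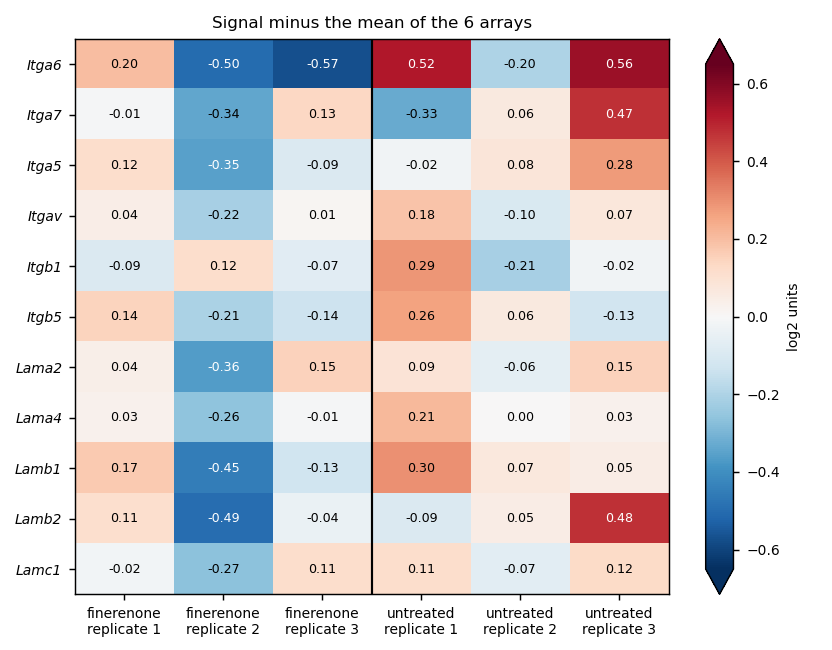
Log2 signal minus the mean of the 6 arrays for the 11 chains above background in some or all arrays (rows), in finerenone arrays (left of the line) and untreated arrays (right). The column of finerenone replicate 2 is negative in 10 of 11 rows, Itgb1 being the exception.

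Markers of the cell types that hold these chains were read from the same arrays, and none passed the adjusted threshold. In bulk tissue, fewer cells of a type and less RNA per cell cannot be told apart. Of the 9 measured endothelial markers all 9 had a lower treated mean (median -0.43), and the list averaged 11.42, 11.19 and 11.06 in finerenone arrays against 12.03, 11.37 and 11.72 in untreated arrays, with Kdr at -0.86 ± 0.27 and Ptprb at -0.48 ± 0.19 (SE). Without untreated replicate 1 these were -0.58 and -0.32. Pecam1 and Emcn were then higher, at 0.06 and 0.05, while the other markers of the list stayed lower. Over all genes 41.8% had a lower treated mean, and 36.3% of those above background in every array did. The lowest treated array of the endothelial list was finerenone replicate 3, as it was for Itga6 (9.02). Of the 9 chains above background, 7 were lowest in finerenone replicate 2. The smooth muscle and pericyte list was lower in 9 of 10 (9.13 to 9.36 in finerenone and 9.25 to 9.64 in untreated arrays), with Pdgfrb at -0.55 ± 0.16 and Tagln at -0.43 ± 0.25, while 6 of its 10 markers lay below background in every array (Myh11, Tagln, Cnn1, Cspg4, Notch3 and Kcnj8). Fibroblast markers, beside Lama2, were higher in 6 of 9 (10.98 to 11.43 in finerenone and 10.87 to 11.37 in untreated arrays), with Mfap5 at 0.54 ± 0.14 and Dpt at 0.52 ± 0.27 (0.35 without untreated replicate 1). The part of these cells in the differences of the chains was not tested.

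Macrophage markers, beside Itgam and Itgb2, were higher in 11 of 12 (median 0.28), and the list averaged 8.89, 8.55 and 8.70 in finerenone arrays against 8.35, 8.67 and 8.22 in untreated arrays. Ccr2 differed by 0.51 ± 0.14 and Fcgr1 by 0.60 ± 0.20 (SE), and both lay below background in every array, as did Cd14 and Cx3cr1. Neither list gave a member past the adjusted threshold. Untreated replicate 2 was the highest untreated array for the list and for Itgb2, and untreated replicate 3 for Itgam. Platelet markers, beside Itga2b and Itgb3, were higher in 5 of 6 (6.38 to 7.54 in finerenone and 6.52 to 6.75 in untreated arrays), with Pf4 at 0.49 ± 0.18 and Ppbp at 1.01 ± 0.87. Without finerenone replicate 2 Ppbp was at 0.0, and the other 4 platelet markers lay below background in every array. Their part was not tested either.

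Lymphoid and granulocyte markers gave little signal beside Itgal, Itgae and Itgb7. T and NK cell markers were lower in 7 of 8 (Klrb1c at -0.28 and Cd3e at -0.17), and B cell markers in 4 of 4 (Ms4a1 at -0.23, or -0.10 without finerenone replicate 2, and Cd79a at -0.11), all below background. Of 9 granulocyte and mast cell markers 5 were lower, with Cpa3 at -0.53 (-0.17 without untreated replicate 1) and Mcpt4 at -0.44 (-0.18 without finerenone replicate 3), and Cpa3 alone exceeded background, in 3 of 6 arrays. Epithelial and mesothelial markers, beside Lama3, Lamb3, Itgb4 and Itgb6, were higher in 6 of 10 with Krt5 at 0.14 and Krt18 at 0.20 (-0.01 without finerenone replicate 2), and 9 of them lay below background in every array. Schwann cell and nerve markers were higher in 6 of 6 (Cdh19 at 0.47 and Pmp22 at 0.33). Of these, 5 lay below background in every array (Mbp, S100b, Sox10, Cdh19 and Gfra3). With single arrays left out Mbp ran from -0.07 to 0.07 and Gfra3 from -0.09 to 0.09. Skeletal muscle markers were higher in 4 of 8 and lower in 4. Those of smallest p, Myh4 at -0.41 and Myh1 at -0.17, lay below background and were -0.17 and -0.10 without untreated replicate 1. The 2 skeletal markers above background in every array were higher, Acta1 at 1.12 (0.44 without finerenone replicate 2) and Ckm at 0.29 (-0.01 without untreated replicate 1). Cardiomyocyte markers were higher in 5 of 9 and lower in 4, with Ttn at -0.25 (-0.04 without finerenone replicate 2) and Mybpc3 at -0.20 (-0.01 without untreated replicate 3). Of the higher ones, Tnnt2, Tnni3, Myl3 and Pln differed by at most 0.01, so the count of signs says little. Myh6, Tnnt2 and Pln lay at 19.46 to 19.93, near the highest log2 value of all (19.93), with SDs of at most 0.02. Whether such signals could show a change was not tested. No member of these lists passed the adjusted threshold.

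**Figure D4:**
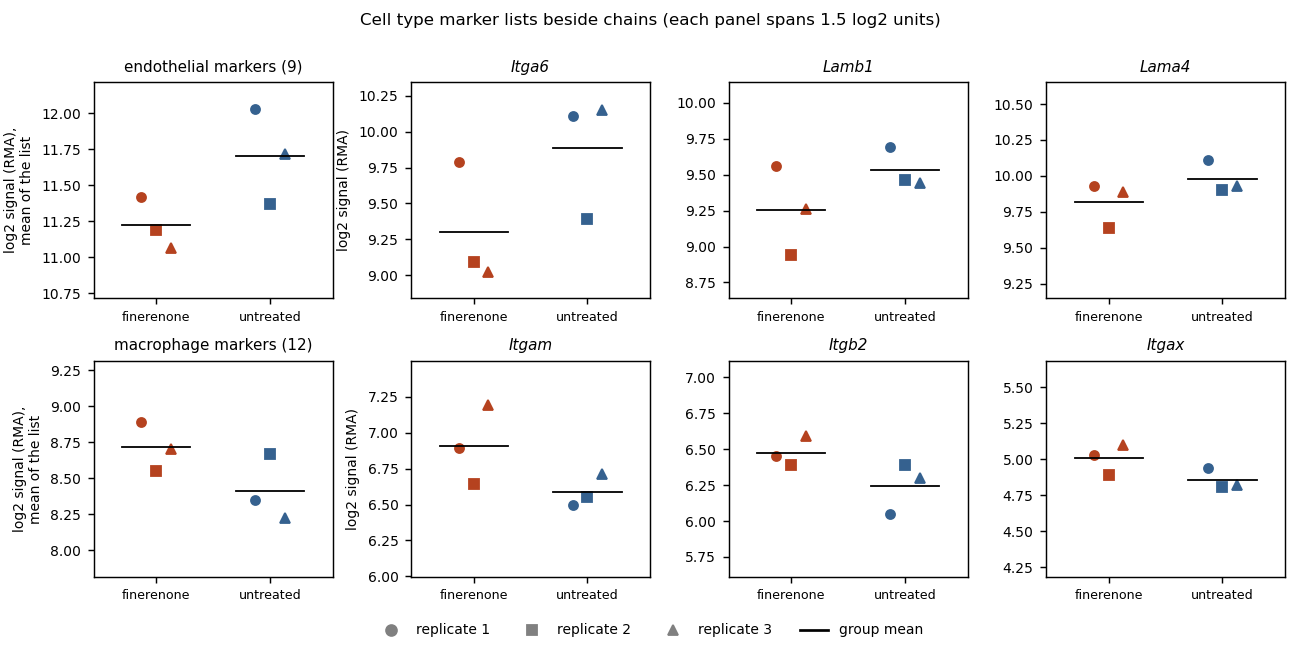
Mean log2 signal of the endothelial markers beside Itga6, Lamb1 and Lama4 (top row), and of the macrophage markers beside Itgam, Itgb2 and Itgax (bottom row), in finerenone arrays (left, red) and untreated arrays (right, blue). Endothelial markers lie at 11.06 to 11.42 in finerenone and 11.37 to 12.03 in untreated arrays, so both rows show groups that overlap or nearly touch.

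Genes that work with the chains were split in direction. Of 74 measured partner genes in 4 lists 34 were higher and 40 lower (median -0.016), and 0 passed the adjusted threshold in limma, while at an unadjusted p below 0.05 there were 2 higher and 4 lower, where 5.69% of all genes were higher and 2.12% lower. These counts were 1 higher and 11 lower after quantile normalization, and 1 and 10 after cyclic loess. The all-gene shares by direction were not computed for these 2 settings, so 5.69% and 2.12% are no reference for them. Over all genes, both directions together, 2315 and 2322 had such a p there, against 2347 in the main fit. A lower mean was then found for 51.9% and 50.4% of all genes, against 41.8%. Inside the cell, 15 of 26 talins, kindlins and adaptors had a lower mean. Fermt2 (kindlin-2), which switches integrins on through the beta chain tail, measured 13.00, 12.75 and 12.86 in finerenone arrays against 13.25, 13.19 and 13.18 in untreated arrays. The groups did not overlap, and the difference of -0.34 ± 0.09 (SE) stayed between -0.40 and -0.28 with any array left out, although its adjusted p was 0.597 in limma.

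The tensins Tns1 and Tns2, which tie beta chains to actin, differed by -0.36 ± 0.16 and -0.33 ± 0.14 (SE), or by -0.24 without finerenone replicate 2 and -0.21 without finerenone replicate 1. Itgb1bp1, an inhibitor of integrin activation, differed by 0.37 ± 0.16 and by 0.20 without untreated replicate 1, below background in every array. Among basement membrane partners 12 of 19 had a lower mean. Col4a2 and Col4a1, the collagen chains that form the network laid beside laminin, differed by -0.65 ± 0.21 and -0.58 ± 0.28, and by -0.49 and -0.35 without finerenone replicate 2. Both were low in finerenone replicates 2 and 3, and finerenone replicate 1 had values of 8.97 for Col4a2 and 8.27 for Col4a1. Dag1 (dystroglycan), the laminin receptor of the dystrophin complex, measured 8.39, 8.27 and 8.38 in finerenone arrays against 8.49, 8.50 and 8.66 in untreated arrays. Its groups did not overlap, with a difference of -0.20 ± 0.09 (adjusted p = 0.646 in limma). Pxdn, which cross-links collagen IV, differed by -0.44 ± 0.22 and by -0.25 without finerenone replicate 2.

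Of the 11 tetraspanins and other membrane partners of integrins, 6 were higher and 5 lower. Cd9, a tetraspanin that binds Itgb1 integrins, measured 10.28, 10.61 and 10.08 in finerenone arrays against 9.83, 9.79 and 9.45 in untreated arrays. Cd63, a tetraspanin of lysosomes and vesicles, differed by 0.35 ± 0.12 (SE). The tetraspanin Cd81 differed by -0.25, as did Emp2, so tetraspanins lay on both sides. The difference of Cd9, 0.63 ± 0.17, was the widest of that list (adjusted p = 0.597 in limma), and its groups did not overlap.

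Among the other integrin ligands 10 of 18 were higher and 8 lower. Tgfb1, whose latent form is activated by Itgav integrins, differed by -0.29 ± 0.13 (SE) and by -0.16 without finerenone replicate 3. Its values lay below background in every array. Npnt, the ligand of Itga8, differed by 0.14 ± 0.07 below background, and Col1a2 by 0.21 ± 0.16 (0.10 without untreated replicate 3). The difference of Fgg, -1.70 ± 1.31, came from untreated replicate 1 and was -0.05 without it. Fgg too lay below background in every array. The fibrinogen chains Fga and Fgb were likewise high in untreated replicate 1 alone. Fga was at 7.17 there (3.55 to 3.74 elsewhere) and Fgb at 8.96 (3.73 to 3.83 elsewhere), and Fgb exceeded background in that array.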

How the data were processed

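Total RNA of ventricles was measured on 6 Affymetrix arrays, 3 per group, 1 mouse each. The authors deposited log2 values per probe set; the submitters' processing notes name RMA, Transcriptome Analysis Console and Affymetrix Expression Console. Versions, genome build and any later transformation were not given in the labels. Of 72688 probe sets 6732 were controls, and log2 values ran from 1.94 to 19.93. Platform annotation, updated to RefSeq genes of GRCm38.p6, gave 30604 clusters 1 symbol; 2146 with several symbols and 33206 with none stayed unnamed. Where a gene had several clusters (429 of 30063 genes), that of highest mean was used.

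Groups were compared with limma 3.58.1 in R 4.3.3 (lmFit, eBayes, two-sided, no covariate), with Benjamini-Hochberg adjustment over 30063 genes and a threshold of 0.05. SE and 95% intervals are those of that fit. It was tested on simulated independent arrays in which 200 genes were changed by more than any chain differed here. Differences as small as those of the chains were not covered by that test. Array number limits precision. A p sets the difference against the spread between 3 mice per group, moderated in eBayes by a prior over all genes. For a chain of little spread such as Itgb7 (SD 0.02 in each group) the SE (0.07) is therefore larger than its own spread would give. Plots used Python 3.11.15. The chains, partner and marker lists and the naming rule (every chain; 4 partners and 2 markers per list of smallest p) were chosen with earlier results of these data known; lists are described without a set test. The percentile of the negative controls was set during the analysis.

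Same-numbered arrays did not deviate together from their group means (correlations -0.154, 0.058 and 0.059), so numbers were not taken as pairs. Alternatives were 3 other normalizations, array weights, averaging a gene's clusters, leaving out dim genes, a robust trended prior, the replicate block and each array left out.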

Additional observations from a re-analysis of the deposited data

How the results depend on the processing

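Under every alternative run 0 genes, 0 of the chains and 0 partner genes passed the adjusted threshold, over all transcript clusters too; 3 arrays per group limit what could pass. Of the chains, 2 had an unadjusted p below 0.05, and this count was 1 after quantile normalization, median centring and cyclic loess. It was 0 when genes with a mean below 6 were dropped, a filter that removed Itgb7 and Lama3 themselves. With single arrays left out it was 0 to 3. Over all genes 2347 had such a p in the main fit, and 2315, 2211 and 2322 after those 3 normalizations. That number was 1306 after the dim filter and 1685 to 2783 with single arrays left out. With the replicate block the count of chains was again 2, but these were Itga6 and Itgam instead of Itgb7 and Lama3. At the adjusted threshold the block changed no call. The dim filter left 18 chains, 13 of them with a lower mean, against 39.1% of the genes kept. The count of lower chains fell from 20 because the filter removed chains from the list. The 9 lower chains above background were 8 or 9 with single arrays left out, and with the 75th percentile of the negative controls, chosen after seeing the data, 12 of 14 were lower, against 38.8% of genes. Of the 35 chains 26 kept their sign throughout (14 lower and 12 higher). Signs turned after quantile normalization for Itga11 (-0.00096) and Itgad (-0.0019), and with array weights for Itgb8 (0.0048); the cause was not tested. With single arrays left out, Itga3 ran from -0.05 to 0.16, Itga7 from -0.34 to 0.06, Itga8 from -0.12 to 0.02, Itga11 from -0.02 to 0.13, Itgad from -0.01 to 0.04, Itgb1 from -0.15 to 0.10, Itgb8 from -0.09 to 0.09, Lama2 from -0.22 to 0.03 and Lamc3 from -0.10 to 0.007.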
